A study of Bos taurus with 20 samples.

Results

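Tubular bovine conceptuses whose embryos had been exposed to interleukin 6 (IL6) were compared with tubular conceptuses whose embryos had received only the carrier. They are 8 of the 20 conceptuses of the series, 4 with IL6 and 4 controls, chosen because their titles give the tubular shape. The other 12 are ovoid. RNA depleted of ribosomal RNA was sequenced from each whole conceptus, and each library is 1 conceptus. Embryos made by fertilisation in vitro received recombinant bovine IL6 at 100 ng/ml or carrier on day 5 and stayed in those drops until day 7.5, when blastocysts were taken for transfer. The conceptuses were therefore measured after a period without added IL6. Their age at recovery is not given in the sources used here.

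A conceptus is the embryo together with its extraembryonic membranes. In cattle the conceptus passes from a sphere through an ovoid and a tubular to a filamentous shape, mainly by growth of the trophectoderm, the outer layer that secretes interferon tau, which signals pregnancy to the mother, and of the endoderm beneath it. IL6 is a cytokine that acts through its receptor and the shared subunit gp130 on JAK kinases and STAT3, a transcription factor, and in early embryos this pathway is known for its part in the inner cell mass and hypoblast.

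The sample titles begin with codes that the labels leave unexplained. Among tubular conceptuses, IL6 replicates 1 (male) and 2 (female) have c6186 and IL6 replicates 3 (female) and 4 (male) carry c9007. Control replicates 1 and 2 (both male) carry c5036, and control replicates 3 (female) and 4 (male) carry c8086. Code and treatment are nested, so an effect of IL6 and a difference between codes cannot be told apart. The p-values measure only the spread between these conceptuses. Libraries held 4845404 to 11366747 counts with IL6 and 6997220 to 12138818 in controls, and the 2 of c6186 were the shallowest of the 8. The c6186 libraries also stood apart in profile, with median Spearman correlations across genes of 0.918 and 0.938 to the other tubular libraries, against 0.952 to 0.977 for the rest. Results are therefore given for each IL6 code as well. Total, mitochondrial share, share in the 10 most abundant genes and number of genes with a count did not differ detectably between the groups (two-sided exact permutation p = 0.371, 0.229, 0.714 and 0.971). The files hold gene identifiers without names, so the labelled tissue could not be checked against its markers, and genes are described by position, length and exon number. In whole conceptuses, fewer cells of a type and less RNA per cell cannot be told apart.

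No gene passed the threshold between tubular IL6 and control conceptuses. At an adjusted p under 0.05, edgeR's quasi-likelihood test called 0 of 14875 genes, and its lowest adjusted p was 0.99967. DESeq2 also called 0. At an unadjusted p under 0.05, edgeR had 374 genes (2.51%), of which 285 were toward higher (1.92%) and 89 toward lower values with IL6 (0.598%), where 743.75 would be expected if nothing differed. DESeq2 had 381 and 248. Without the shallowest ovoid control library, which shares the edgeR model, there were 441 and 307, and without IL6 replicate 1 there were 75 and 34. In simulated counts for this comparison, 14 of 100 simulated 2-fold changes and 50 of 100 simulated 4-fold changes were called by edgeR, so most changes of 2-fold would be missed at this number of conceptuses.

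A second description needs no test. A gene is called separated here when all 4 IL6 libraries lay above, or all 4 below, all 4 controls in CPM (counts scaled to the size of the library, here with TMM factors). Of the 14875 genes, 602 were separated (4.05%), 356 higher (2.39%) and 246 lower with IL6 (1.65%). In the simulated counts, 2.90% of the genes left unchanged were separated in either direction. Those genes were drawn independently of each other with no difference between title codes. The 2.90% is therefore not a chance level for these libraries, whose genes can move together. With CPM of the raw total and no TMM factor, the counts were 579 higher and 126 lower, so the split between directions depends on the scaling. With 1 library left out the counts ran from 448 to 1341 higher and from 307 to 997 lower. They were over 1.5 times the full counts without control replicates 1, 3 or 4 or IL6 replicates 2 or 4. Fewer libraries leave more genes without overlap by chance, and that level was not simulated for the reduced sets. Few gaps were wide, since 5 genes in each direction kept a gap of at least 0.5 in log2 of CPM plus 1. Adding 1 narrows the gaps of genes at low CPM.

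The separated genes differed in kind by direction. The 356 higher genes had a median summed exon length of 3081 nucleotides and a median of 11 exons, whereas the 246 lower genes had 1411 nucleotides and 6 exons. Over all tested genes the medians were 2341 nucleotides and 8 exons. The lower genes were also more abundant, with a median log2 CPM of 5.99 against 3.01 for the higher genes and 4.42 for all. Median log2 fold changes were 0.74 for the higher and -0.54 for the lower genes. An absolute log2 fold change of at least 1 was reached by 109 higher and 31 lower genes.

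The named genes are the 2 separated genes with the smallest p in each direction. ENSBTAG00000009055 (chromosome 23, 39178911 to 39266796, ARS-UCD1.2, 9 exons, 4740 nucleotides) measured 14.4, 11.4, 9.92 and 13.5 CPM in control replicates 1 to 4 and 39.1, 29.1, 24.0 and 18.5 CPM in IL6 replicates 1 to 4. The lowest IL6 library was above the highest control, and both c6186 libraries were above both of c9007. Its log2 fold change was 1.22 ± 0.31 (SE, edgeR adjusted p = 0.99967). ENSBTAG00000025853 (chromosome 10, 10413731 to 10546778, 10 exons, 3088 nucleotides) measured 3.11, 2.85, 3.36 and 3.87 CPM in controls and 5.08, 7.91, 13.6 and 9.77 CPM with IL6. Here the c9007 libraries were the higher of the IL6 libraries. The log2 fold change was 1.497 ± 0.427 (SE, edgeR adjusted p = 0.99967).

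Toward lower values, ENSBTAG00000005082 (chromosome 5, 82772595 to 82782365, 5 exons, 812 nucleotides) measured 22.7, 27.5, 28.2 and 24.99 CPM in controls and 13.7, 17.1, 16.8 and 20.6 CPM with IL6. The groups were separate by a narrow margin between IL6 replicate 4 and control replicate 1. Its log2 fold change was -0.65 ± 0.20 (SE, edgeR adjusted p = 0.99967). ENSBTAG00000009788 (chromosome 10, 85013824 to 85030876, 4 exons, 2610 nucleotides) measured 20.2, 10.2, 18.6 and 19.1 CPM in controls and 1.77, 5.38, 3.98 and 5.93 CPM with IL6. All 4 IL6 libraries were below control replicate 2, which was itself far under the other controls. The log2 fold change was -1.97 ± 0.66 (SE, edgeR adjusted p = 0.99967). In ovoid conceptuses ENSBTAG00000009788 had a median of 14.7 CPM in controls (0 to 22.7) and 13.3 CPM with IL6 (4.44 to 33.5), so the ovoid groups overlapped. The 0 was in the shallowest ovoid control library. ENSBTAG00000009055 had ovoid medians of 12.98 CPM in controls (10.1 to 17.5) and 21.9 CPM with IL6 (10.2 to 27.5), again with overlap. Its ovoid c6186 libraries measured 17.98 to 27.5 CPM, above all ovoid controls. Those of c9007 measured 10.2 and 12.7 CPM, within the range of the ovoid controls. The difference of the IL6 effect between shapes did not pass for either gene (edgeR adjusted p = 1). The ovoid groups also overlapped for ENSBTAG00000025853, with 2.57 to 10.4 CPM in controls and 4.82 to 9.44 CPM with IL6. For ENSBTAG00000005082 they overlapped as well, with 21.8 to 32.8 CPM in ovoid controls and 14.7 to 24.98 CPM with IL6. None of these 4 genes overlaps another annotated gene.

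**Figure D1:**
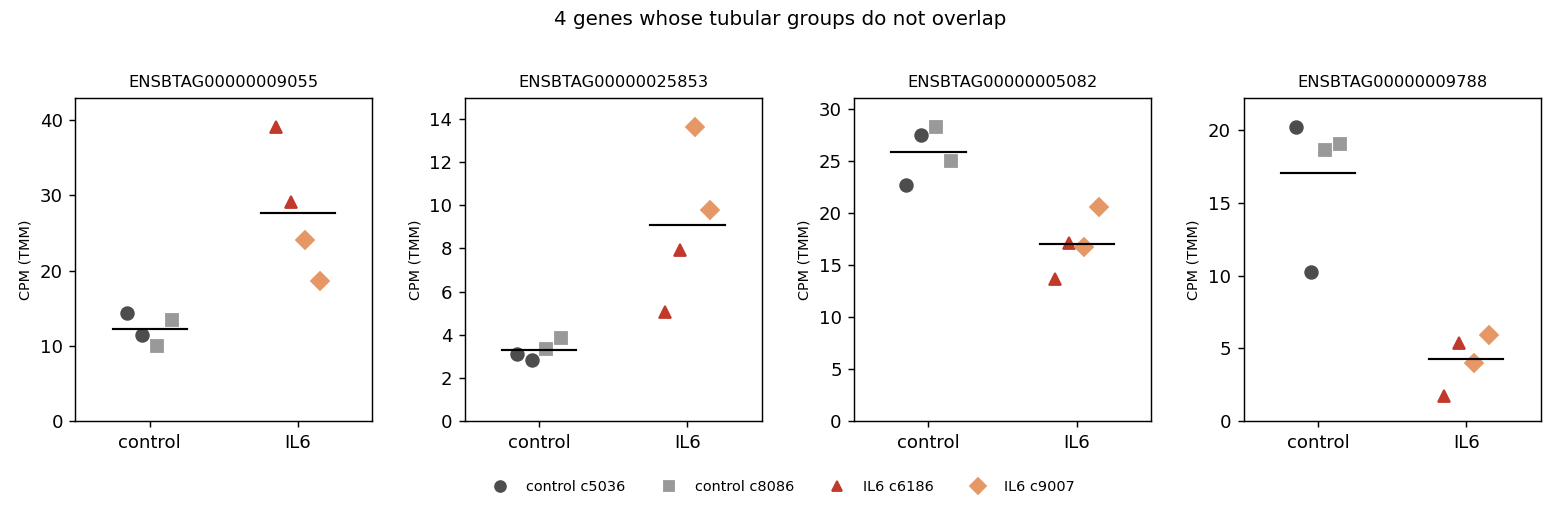
CPM (TMM-scaled, vertical axis, from 0) of the 4 named separated genes in each tubular library, by group; symbols give the title code and bars the group mean. For ENSBTAG00000009055 the IL6 libraries lie between 18.5 and 39.1 CPM and the controls between 9.92 and 14.4, and for ENSBTAG00000009788 the IL6 libraries lie at or under 5.93 CPM.

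By summed exon length, the median log2 fold change rose from class to class. It was -0.14 in the 2172 genes under 1 kb, -0.09 in the 3946 of 1 to 2 kb, 0.02 in the 5942 of 2 to 4 kb, 0.13 in the 2502 of 4 to 8 kb and 0.24 in the 313 of 8 kb and over. Over all tested genes it was 0.00. With no filter on low counts the median under 1 kb was -0.01. Of genes under 1 kb, 41.3% had a positive fold change, against 65.3% at 4 to 8 kb and 71.9% at 8 kb and over. These are descriptions over genes, which are not replicates.

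Separated genes followed the same order. Under 1 kb, 40 genes were separated higher (1.84%) and 87 lower (4.01%), beside 2.39% and 1.65% of all tested genes. At 1 to 2 kb there were 56 higher and 78 lower, and at 2 to 4 kb 145 higher and 68 lower. At 4 to 8 kb, 95 were higher (3.80%) and 12 lower (0.480%). At 8 kb and over, 20 were higher (6.39%) and 1 lower (0.319%). The balance in the shortest class turned with the scaling, to 62 higher and 47 lower with CPM of the raw total, whereas with RLE factors it was 37 and 94. With no filter on low counts, higher minus lower genes came to -0.0426% of that class, in place of -2.16%. At 4 to 8 kb and at 8 kb and over, higher genes were the more numerous under all 3 scalings.

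**Figure D2:**
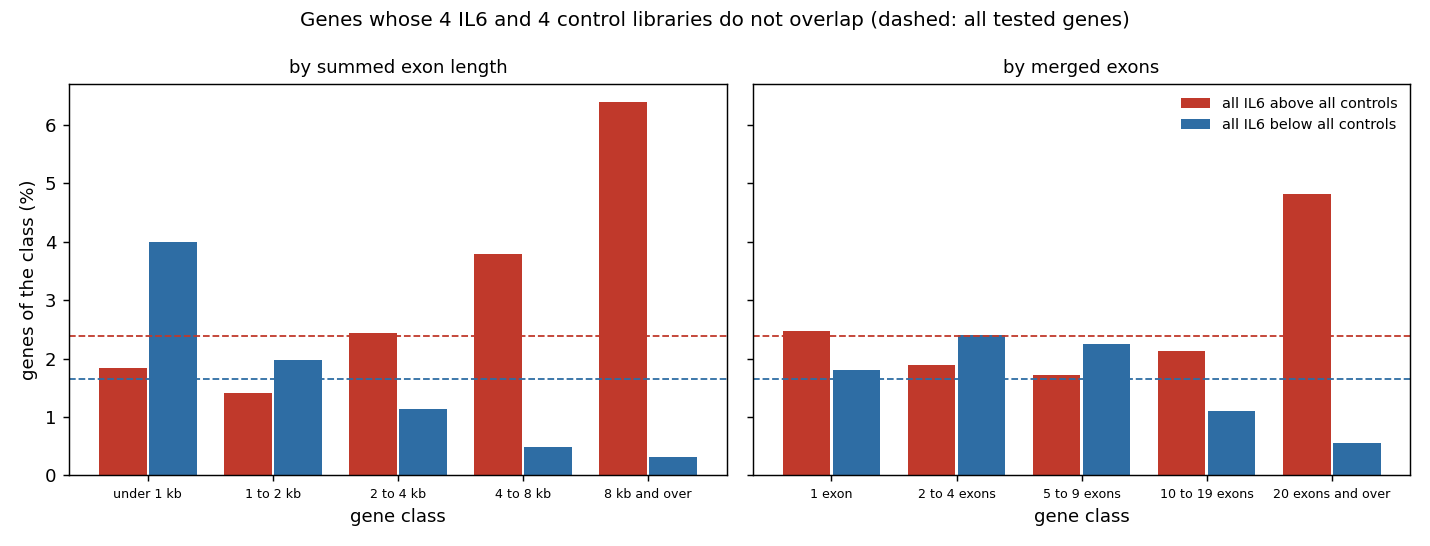
Share of genes of each class (percent, vertical axis, from 0) with all 4 IL6 libraries above (red) or below (blue) all 4 controls, by summed exon length (left) and exon number (right); dashed lines give the shares over all tested genes, 2.39% and 1.65%. The red bars reach 6.39% at 8 kb and over, and the blue bars fall from 4.01% under 1 kb to 0.319%.

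The share of each library's counts in a class uses no scaling factor. Genes under 1 kb took 8.18, 8.45, 8.16 and 7.999% of counts in control replicates 1 to 4 and 4.92, 6.91, 7.90 and 7.67% in IL6 replicates 1 to 4. The groups did not overlap, but the c9007 libraries lay just under the lowest control. The mean difference was -1.35 percentage points (two-sided exact permutation p = 0.0286, adjusted p = 0.3 over 42 classes). Genes of 4 to 8 kb took 23.1, 22.3, 21.8 and 22.8% in controls and 25.7, 24.2, 23.4 and 23.1% with IL6. The groups again did not overlap, and IL6 replicate 4 was nearly level with control replicate 1. The mean difference was 1.61 points (exact permutation p = 0.0286, adjusted p = 0.3). Without IL6 replicate 1 the differences were -0.703 points under 1 kb and 1.09 points at 4 to 8 kb, and without c6186 they were -0.411 and 0.791.

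Genes of 8 kb and over took 8.60, 7.44, 7.25 and 7.42% in controls and 11.1, 9.01, 7.97 and 7.66% with IL6. Here the groups overlapped, because control replicate 1 was above both c9007 libraries (exact permutation p = 0.171, adjusted p = 0.6). The difference was 1.26 points, and 0.534 without IL6 replicate 1. A p of 0.0286 is the smallest that 4 against 4 allows, and 4 of the 42 classes had it. The remaining pair were chromosomes 26 and 27, whose shares were higher with IL6 by 0.0705 and 0.0627 points. No class passed after adjustment.

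**Figure D3:**
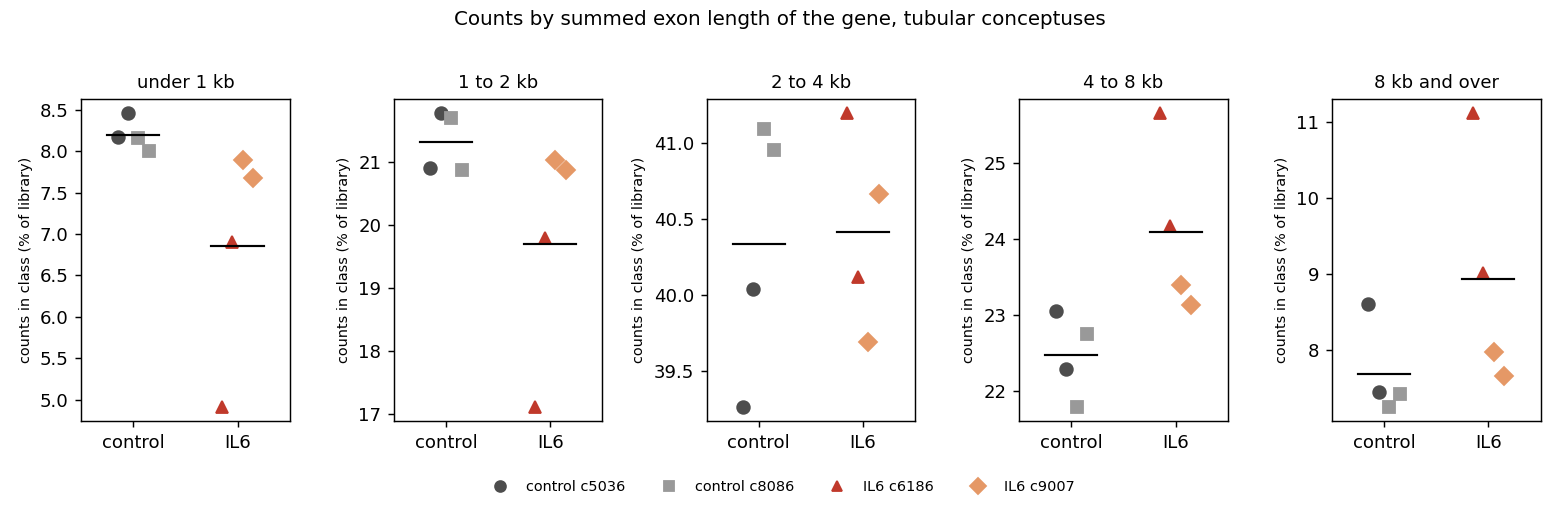
Share of each tubular library's counts (percent, vertical axes not starting at 0) in 5 classes of summed exon length; symbols give the title code and bars the group mean. The c6186 libraries (red triangles) lie farthest from the controls in the shortest class, at 4.92 and 6.91%, and in the longest, at 11.1 and 9.01%.

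Against the shared controls, the 2 IL6 codes had the same order of median fold changes over length classes, with different sizes. The codes share the 4 controls, so their values stand side by side only. From the shortest to the longest class, median log2 fold changes were -0.19, -0.16, 0.02, 0.19 and 0.38 for c6186. For c9007 they were -0.11, -0.04, -0.00, 0.03 and 0.05. The c9007 libraries themselves showed little trend with length. Median deviations of log2 CPM from the mean of the 8 tubular libraries were taken per library. IL6 replicates 3 and 4 had 0.02 and -0.02 under 1 kb, and 0.01 and -0.04 at 8 kb and over. Control replicates 1 to 4 had 0.02, 0.03, 0.17 and -0.0004 under 1 kb. At 8 kb and over the controls had -0.04, -0.12, -0.16 and -0.16. Without c6186 the overall fit gave -0.07 under 1 kb and 0.06 at 8 kb and over, in place of -0.14 and 0.24. Without IL6 replicate 1 alone it gave -0.13 and 0.12.

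Depth moved with c6186, so all 8 libraries were thinned to the total of the shallowest, a step chosen after seeing the data. After thinning, 339 genes were separated higher and 223 lower. The shares separated were then 1.61% higher and 3.55% lower under 1 kb, and 8.31% and 0.319% at 8 kb and over. Thinning matched only the total count, and the part of other library properties was not tested.

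Fold changes also varied with abundance. When tested genes were cut into 4 equal bins of mean abundance, all genes of the lowest bin had a median log2 fold change of 0.16, and all genes of the highest -0.03. Genes under 1 kb had a median log2 fold change of 0.13 in the lowest bin and -0.46 in the highest. In the highest bin, 39 of 225 such genes were separated lower (17.3%) and 0 higher, beside 3.31% and 1.59% of all genes of that bin. In the lowest bin, 3.41% were separated higher and 1.102% lower, near the 3.63% and 0.807% of all genes of the bin. Genes of 8 kb and over were positive in every bin, with medians from 0.19 to 0.28. In the lowest bin, though, the longest genes had 0.22 with 1 gene separated in each direction, and every length class there was positive, from 0.12 to 0.22. In the highest bin the length classes ran from -0.46 to 0.24.

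By exon number, the pattern was at the ends. Genes with 20 exons and over (2182) had a median log2 fold change of 0.14, with 4.81% separated higher and 0.550% separated lower. Their share of counts was 24.97, 23.1, 23.4 and 23.5% in controls and 28.4, 26.2, 24.9 and 24.6% with IL6. Control replicate 1 lay above both c9007 libraries, and the difference of 2.23 points had an exact permutation p of 0.0857 (adjusted p = 0.45). Without IL6 replicate 1 the difference was 1.44 points and the median log2 fold change 0.07. Genes of 2 to 4 and of 5 to 9 exons had medians of -0.07 each, and genes of 10 to 19 exons 0.00. Without c6186 the first 2 of these medians were -0.0017 and -0.0073, and without IL6 replicate 4 they were -0.12 and -0.11. Among genes with 20 exons and over, the median was 0.10 at 2 to 4 kb, 0.14 at 4 to 8 kb and 0.25 at 8 kb and over.

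The 1335 single-exon genes had a median log2 fold change of 0.13 and a median length of 514 nucleotides. Most were of low abundance. The median was 0.30 for the 727 in the lowest abundance bin and 0.03, -0.10 and -0.13 in the next 3, and in the highest bin 8 of 96 were separated lower and 0 higher. Over all single-exon genes it was 0.18 for c6186 and -0.05 for c9007, and -0.01 in the overall fit without IL6 replicate 1. Among genes under 1 kb, those with 1 exon had a median of 0.09, whereas those with 2 to 4 exons had -0.22 and those with 5 to 9 exons -0.26. The single-exon share of counts was 12.3% in IL6 replicate 1, against 6.77 to 8.37% in the other tubular libraries. A single gene held much of that excess. ENSBTAG00000052369, which lies on the unplaced scaffold NKLS02002005.1 (77605 to 79758, 2154 nucleotides), took 5.61% of the counts of IL6 replicate 1 and 1.33 to 2.22% elsewhere. Without this gene the single-exon share was 7.10% in IL6 replicate 1, still the highest, against 5.11 to 6.86% in the other tubular libraries.

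**Figure D4:**
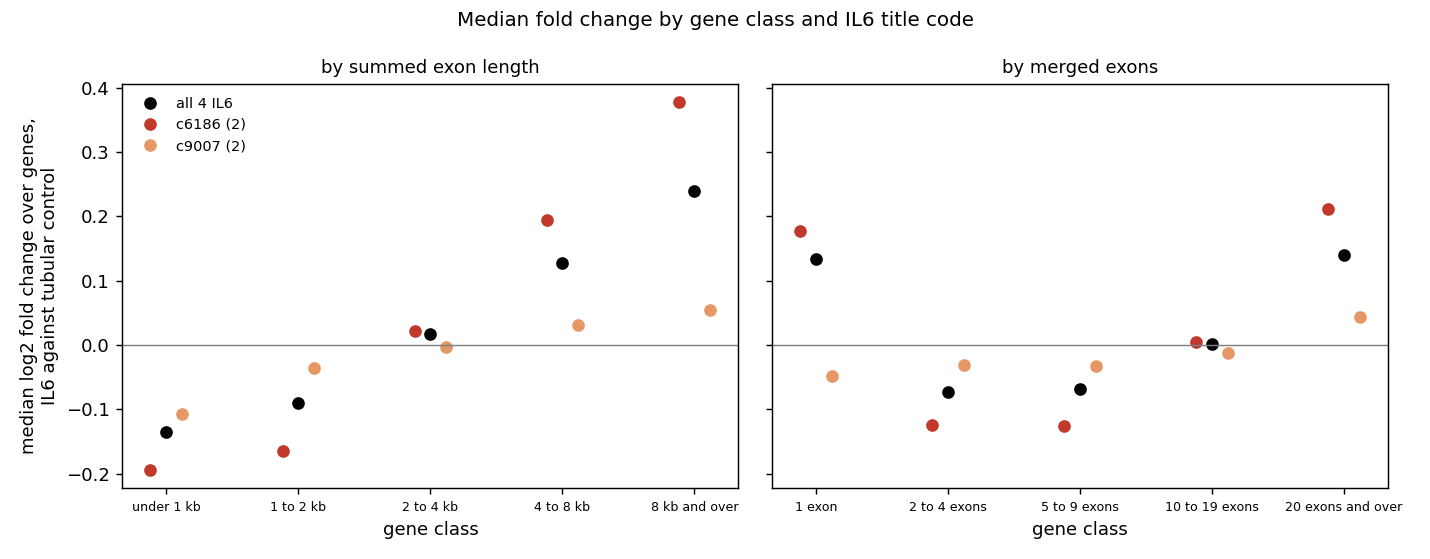
Median log2 fold change over the genes of each class (vertical axis) against tubular controls, for all 4 IL6 libraries (black), c6186 (red) and c9007 (orange), by summed exon length (left) and exon number (right). The c6186 medians run from -0.19 to 0.38 over the length classes and the c9007 medians from -0.11 to 0.05.

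Each IL6 code was next compared with the 4 controls. The c6186 pair differed in more genes than the c9007 pair. For c6186, edgeR called 2 genes (0.0134%) and had 1962 at an unadjusted p under 0.05 (13.2%), 1035 higher (6.96%) and 927 lower (6.23%). DESeq2 called 634. In the simulated counts of IL6 against control, 24 DESeq2 calls were false, against 2 for edgeR. Calls for 1 code or between codes were not simulated. For c9007, edgeR called 0, and 134 genes had an unadjusted p under 0.05 (0.901%), 77 higher (0.518%) and 57 lower (0.383%). DESeq2 made 0 calls for c9007 and had 260 genes under that unadjusted p. The edgeR calls for c6186 were 0 to 3 when single libraries were left out, among them 1 without IL6 replicate 1 and 0 without IL6 replicate 2. With 1 of these left out, c6186 is 1 conceptus, which is assumed to vary like the other groups. Genes at an unadjusted p under 0.05 in the c6186 comparison were 471 without IL6 replicate 1.

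Both genes called for c6186 were higher. ENSBTAG00000001292 (chromosome 22, 52952571 to 52986619, 17 exons, 3112 nucleotides) measured 2.87 and 11.1 CPM in the c6186 libraries, against at most 0.677 CPM in the other 6. Its log2 fold change was 3.89 ± 0.53 (SE, edgeR adjusted p = 0.0179), and its size is uncertain because the lowest library held 2 counts. The c9007 libraries, at 0.677 and 0.334 CPM, were beside the controls at 0.188 to 0.587. ENSBTAG00000025450 (chromosome 10, 76116422 to 76386867, 115 exons, 21570 nucleotides) measured 250.2 and 220.4 CPM in c6186, 119 and 80.3 CPM in c9007 and 56.5 to 92.2 CPM in controls. Its log2 fold change was 1.73 ± 0.26 (SE, edgeR adjusted p = 0.0274) for c6186 and 0.44 ± 0.26 (SE, edgeR adjusted p = 1) for c9007. This gene overlaps 1 other annotated gene, and the counting ignored strand, so reads of the overlap cannot be assigned. In ovoid conceptuses, ENSBTAG00000025450 measured 183.5 to 379.7 CPM in the 4 libraries of c6186, 85.4 and 71.6 CPM in the 2 of c9007 and 42.7 to 79.0 CPM in the 6 controls. ENSBTAG00000001292 measured 9.21 to 15.6 CPM, 1.25 and 1.37 CPM, and 0 to 0.725 CPM in the same order. For both genes the ovoid c6186 libraries were above all other ovoid libraries.

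Genes outside all controls were also listed for each code. The c6186 pair lay above all 4 controls for 2434 genes (16.4%) and below for 2272 (15.3%). The c9007 pair lay above for 1134 (7.62%) and below for 1055 (7.09%). By chance a pair lies outside 4 controls more often than 4 libraries do. That level is not given beside these shares, so the lists are not read as results about their genes. Of all tested genes, 134 (0.901%) had an unadjusted edgeR p under 0.05 for c9007. The genes on the same side in both codes are the 356 and 246 separated genes. The 356 were 14.6% of the c6186 and 31.4% of the c9007 higher lists, and the 246 were 10.8% and 23.3% of the lower lists. On opposite sides, c6186 was above and c9007 below all controls for 166 genes, with the reverse for 172. Within the separated genes the c6186 fold change was the larger in size for 305 of 356 higher and 214 of 246 lower genes, beside 10606 of all 14875 tested genes. Their median log2 fold changes were 0.87 (c6186) and 0.49 (c9007) for the higher genes, and -0.77 and -0.34 for the lower genes.

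Length classes differed in the lists of both codes, which share their controls. At 8 kb and over, 36.1% of genes were above all controls in c6186 and 6.71% below, and 10.5% and 4.79% in c9007. Under 1 kb, 14.5% were above and 21.7% below in c6186, and 5.39% and 11.05% in c9007.

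The codes were also set against each other. Between c9007 and c6186, edgeR made 0 calls and had 1671 genes at an unadjusted p under 0.05 (11.2%), 867 higher (5.83%) and 804 lower (5.41%) in c9007. DESeq2 called 303. The edgeR count of 1671 was 565 without IL6 replicate 1, 711 without IL6 replicate 3 and 774 without IL6 replicate 4, fits in which 1 code is a single conceptus assumed to vary like the other groups. ENSBTAG00000009663 (chromosome 5, 98853392 to 98878560) measured 81.9 and 85.8 CPM in c6186, 158 and 218 CPM in c9007 and 162 to 245 CPM in controls. The c6186 pair was the one that stood apart, and the c9007 minus c6186 log2 difference was 1.15 ± 0.26 (SE, edgeR adjusted p = 0.386). ENSBTAG00000005633 (chromosome 20, 7683041 to 7967728, 38 exons, 7632 nucleotides) measured 69.5 and 86.2 CPM in c6186, 24.6 and 22.0 CPM in c9007 and 25.2 to 34.9 CPM in controls. Again c6186 differed from the rest, and the c9007 minus c6186 log2 difference was -1.74 ± 0.34 (SE, adjusted p in edgeR = 0.386). ENSBTAG00000017996 (chromosome 18, 50048803 to 50056733) lay on opposite sides of the controls, at 137 and 99.4 CPM in c6186 and 43.9 and 52.5 CPM in c9007 against 69.7 to 82.2 CPM in controls (edgeR adjusted p = 0.386). ENSBTAG00000030366 (chromosome 7, 62054328 to 62064514) measured 30.9 and 33.4 CPM in c6186, 63.4 and 73.1 CPM in c9007 and 47.9 to 64.2 CPM in controls. The c6186 pair lay below all controls, but only 1 of the c9007 libraries lay above them (edgeR adjusted p = 0.386 between the codes). This gene overlaps 1 other annotated gene, so reads of the overlap cannot be assigned.

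By chromosome, medians lay between -0.16 and 0.13 for all but the mitochondrial genes. Chromosome 9 (345 genes) had 0.13 and chromosome 24 (218 genes) 0.12, and X (514 genes) and chromosome 13 (550 genes) had -0.16 and -0.14. On X 3 genes were separated higher (0.584%) and 7 lower (1.36%), beside 2.39% and 1.65% of all tested genes, and on chromosome 13 there were 4 higher and 15 lower (0.727% and 2.73%). The chromosome 13 median rested on 1 control library, being -0.01 without control replicate 4. The X median was -0.09 without control replicate 3. For X, the model holds a term for sex. The X share of counts was 2.66 and 2.47% in the IL6 females and 3.11% in the control female, and 1.82 and 2.11% in the IL6 males against 2.12, 2.08 and 2.02% in the control males. Only 1 tubular control female was measured, so the spread among tubular control females is unknown. The ovoid control females had X shares of 2.61, 2.91 and 3.18%. The 27 mitochondrial genes had a median of 0.27, with 0 separated in either direction, and -0.06 without c8086.

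Across the 29 autosomes, the median log2 fold change was lower where genes lie more densely (Pearson r = -0.543, Spearman rho = -0.709, n = 29). The points come from the same 8 libraries and differ in gene length and base composition, so this is a description. For each code alone, Pearson r was -0.605 for c6186 and -0.226 for c9007. Single libraries of both groups also varied on the densest autosomes, 19, 18 and 25. Median deviations of log2 CPM from the mean of the 8 tubular libraries were lowest there in IL6 replicate 2 and control replicate 3. They were -0.08, -0.21 and -0.19 in IL6 replicate 2 and -0.10, -0.12 and -0.22 in control replicate 3.

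**Figure D5:**
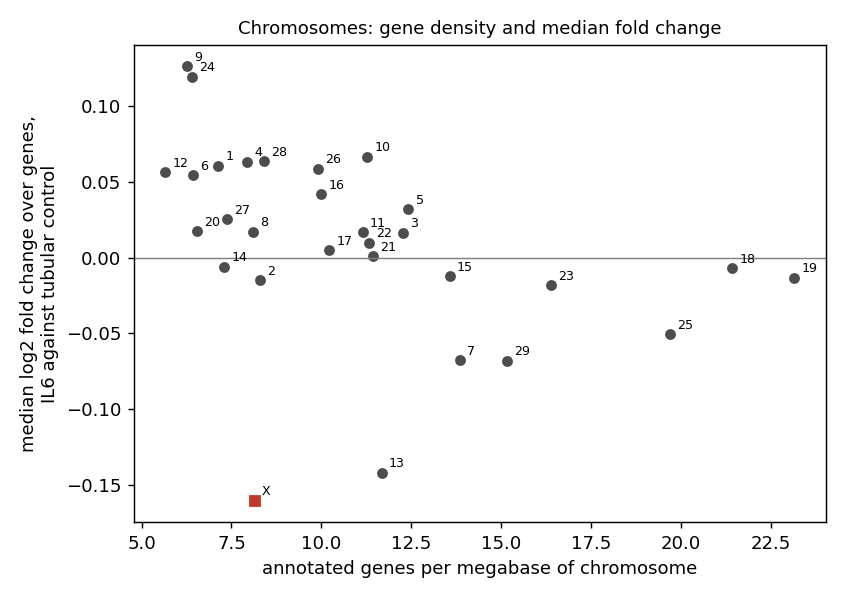
Median log2 fold change of IL6 against tubular control over the tested genes of each chromosome (vertical axis) by annotated genes per megabase (horizontal axis); each point is 1 chromosome and the red square is X. X and chromosome 13 are lowest, at -0.16 and -0.14, and chromosome 9 is highest at 0.13.

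A single 5 Mb window held more lower separated genes than any other. On chromosome 23 from 30000001 to 35000000, 10 of 86 tested genes (11.6%) were separated lower. The share was 1.65% over all tested genes and 4.01% over genes under 1 kb. The next highest count in any of 278 windows with at least 20 tested genes was 5. The window was picked for this count, so it carries no test. All 10 were under 1 kb, from 298 to 768 nucleotides, and 5 had 1 exon. They are thus among the 87 lower separated genes of that length class. Their mean log2 CPM ran from 5.85 to 7.44, against a median of 4.42 over all tested genes. Their log2 fold changes ran from -0.87 to -0.40, with medians of -0.90 for c6186 and -0.45 for c9007, and edgeR gave an unadjusted p under 0.05 for 1 of them.

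The window's 24 single-exon genes all had negative fold changes, with a median of -0.54, beside -0.36 over all 86 tested genes of the window. Together they summed to 2698, 3106, 2326 and 2606 CPM in control replicates 1 to 4 and 1050, 1512, 2236 and 2487 CPM with IL6. The c6186 libraries were far under the controls. On this scale the c9007 libraries lay beside the controls, with IL6 replicate 4 above control replicate 3. The TMM factors were 0.937 for control replicate 3 and 1.05 for IL6 replicate 4, and applying them would turn that order. Reads shared between near-identical copies make the split of counts uncertain, and whether these genes are such copies was not tested.

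The same shares were taken in the ovoid conceptuses. Genes under 1 kb took 7.87 to 16.4% of counts in the 6 ovoid controls and 6.06 to 9.46% in the 6 ovoid IL6 libraries, and the groups overlapped. The highest of these was an ovoid control that stood apart as the shallowest library of the series. Genes of 8 kb and over took 5.79 to 7.93% in ovoid controls and 7.09 to 10.7% with IL6, again overlapping. In c6186 the ovoid mean was 8.90% at 8 kb and over, in c9007 7.32%, in control code c5036 7.39% and in control code c201 6.27%. The difference between shapes in these shares was not tested.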

How the data were processed

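The authors deposited raw counts per Ensembl gene for each conceptus, for which featureCounts 2.0.1 counted fragments over exons regardless of strand and ignored marked duplicates (annotation ARS-UCD1.2.105), per the file headers. The submitters' processing notes also list HISAT2, SAMtools and Picard. How these were run is not given in the sources used here. Length and exon number came from the same files, with overlapping exons merged. Groups, sex and title codes came from the labels.

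Of 27607 genes, edgeR 4.0.16's default filter by group kept 14875. All 20 libraries were fitted in a robust quasi-likelihood model with TMM factors, 4 group terms and sex, and with 6 groups for the title codes. P-values were adjusted by Benjamini-Hochberg over all tested genes. CPM was computed from the counts with TMM factors, except where stated. Standard errors are the log2 fold change over the square root of F. Exact two-sided permutation tests compared shares and library measures, adjusted over 42 classes and over the library measures. Log2 CPM used a prior count of 2. Alternatives included DESeq2 1.42.0 and limma 3.58.1 with title code as a random block. R 4.3.3, Python 3.11.15 and matplotlib 3.10.9 were used.

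The test was checked on simulated counts over 14699 genes, with 2 false calls for edgeR. DESeq2 called 36 of 100 simulated 2-fold and 73 of 100 simulated 4-fold changes there, and 24 genes falsely.

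The comparison, the classes and the lists were chosen with earlier results of these data known. The rule for named genes took separated genes whose mean log2 CPM reached 1 and the smallest p, at most 2 in each direction per comparison, because 0 identifiers matched the gene table at hand. Genes called for a title code, and those with the smallest p between codes, were named likewise. The most abundant gene and the chromosome 23 window were chosen after their values were seen. For the same reason the 17 gene lists, cell type markers included, could not be matched and were not tested.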

Additional observations from a re-analysis of the deposited data

Results flagged for a closer look

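In 60 groups of 4 tubular libraries, 6 values lay far from the other 3 of their group by Dixon's criterion, and chance alone gives about 1 in 20 groups. Genes of 8 kb and over took 8.60% of counts in control replicate 1, against 7.25 to 7.44% in the other controls. The X share was 3.11% in control replicate 3, the only tubular control female, against 2.02 to 2.12% in the 3 tubular control males. The chromosome 13 share was 4.04% in IL6 replicate 2, against 3.06 to 3.20% in the other IL6 libraries. ENSBTAG00000009788 measured 10.2 CPM in control replicate 2, against 18.6 to 20.2 CPM in the other controls. ENSBTAG00000017996 measured 82.2 CPM in control replicate 4, against 69.7 to 69.9 CPM in the other controls. ENSBTAG00000052369 took 5.61% of counts in IL6 replicate 1, against 1.33 to 1.95% in the other IL6 libraries.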

How the results depend on the processing

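The comparison of tubular IL6 with control called 0 genes under all 22 alternatives, including DESeq2, RLE factors, other filters, tubular libraries alone, males alone, no sex term, the title code as a random block, and each library or title code left out. Genes at an unadjusted p under 0.05, 285 higher and 89 lower in edgeR, were 381 and 248 in DESeq2, 547 and 333 with the tubular libraries alone, 441 and 307 without the shallowest ovoid control, 387 and 165 with no low-count filter, 168 and 93 with the title code block, 75 to 471 and 34 to 246 with each replicate left out, and 130 and 88 without c6186 but 747 and 737 without c9007, 89 and 42 without c5036 and 210 and 106 without c8086. With the tubular libraries alone, c6186 had 3952 such genes in place of 1962, c9007 601 in place of 134, and c9007 against c6186 3565 in place of 1671. Fewer libraries leave more genes without overlap. The number of separated genes was 579 higher and 126 lower with CPM of the raw total. It was 5 and 5 with a gap of 0.5 in log2 of CPM plus 1, and 2235 and 1821 in males alone. Leaving out each replicate in turn gave 448 to 1341 higher and 307 to 997 lower, the most without control replicate 3. With title codes left out, an alternative chosen after seeing the data for separated genes and shares, the counts were 1134 and 1055 without c6186, 2434 and 2272 without c9007, 881 and 620 without c5036, and 1888 and 1575 without c8086. For c6186 against control, edgeR called 6 genes with the tubular libraries alone, 1 without the sex term, 1 with a CPM above 1 in at least 4 libraries, 1 with RLE factors and 0 to 3 with each replicate left out, and DESeq2 called 634. DESeq2 called 303 between c9007 and c6186. Medians kept their sign in 22 of 22 alternatives under 1 kb (-0.22 to -0.01), at 4 to 8 kb (0.04 to 0.16) and at 8 kb and over (0.06 to 0.30). The median of all tested genes moved only between -0.04 and 0.03. Differences in share that turned were small. The 2 to 4 kb share was -0.367 points without the most abundant gene, -0.160 without c6186, -0.607 without c5036, and -0.278 to 0.330 with each replicate left out (below 0 without control replicates 1 or 2 or IL6 replicates 1 or 4). The share of genes with 10 to 19 exons ran from -0.731 to 0.197 with each replicate left out (above 0 without IL6 replicate 1 or control replicate 3) and was 0.372 without c8086. The X share ran from -0.199 to 0.191 (above 0 without those same replicates) and was 0.166 without c8086, and the chromosome 13 share 0.105 without c8086. The share in the 10 most abundant genes ran from -0.231 without IL6 replicate 1 to 2.27, and the difference in genes with a count from -211.3 to 425.3 with each replicate left out, below 0 without control or IL6 replicates 3 or 4. The cause of these changes was not tested. No paired analysis was possible because replicate numbers follow accession order and pair nothing. The title code block in limma had a correlation within code of 0.148. With 4 conceptuses a group, changes of 2-fold are mostly under what the test can call.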
